A study of Mus musculus with 18 samples.

Results

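Oocytes from primary follicles were compared with oocytes from primordial follicles in ovaries that had not been cultured, with 3 libraries at each stage. The libraries were chosen by the stage and the *in vivo* label of each sample, and they are 6 of the 18 libraries of the series. The mice were F1 females of the cross C57Bl/6j × CBA/J, and the ovaries of both stages were taken at 14 days of age with 0 days in culture and no treatment. Ovaries were fixed, embedded in paraffin, sectioned and stained, and single oocytes were cut out by laser capture microdissection (LCM), in which a laser frees chosen cells from a section. An oocyte within flattened pregranulosa cells was taken as primordial, and an oocyte within a single layer of cuboidal granulosa cells as primary. RNA of the collected cells was pooled by stage at extraction, amplified, and made into libraries with a kit that captures coding RNA. No source used here says that the 3 libraries of a stage came from separate animals, so the spread between libraries may be technical. The p-values of the model used below measure that spread over 12 microdissected libraries. These were the 6 described here and 6 from ovaries of 7-day-old mice after 7 days of culture.

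A primordial follicle holds a resting oocyte, arrested in meiotic prophase, and this store is the source of all later eggs. When a follicle is activated, signaling through KIT, PI3K and AKT moves the transcription factor FOXO3 out of the oocyte nucleus, the oocyte starts to enlarge, and the flat cells around it become cuboidal. The growing oocyte lays down the zona pellucida, a coat of the glycoproteins ZP1, ZP2 and ZP3, secretes GDF9 and BMP15 to the granulosa cells, and stores RNA and protein for the embryo.

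The total count was between 18437770 and 25495043 reads per library, and a floor of 3 reads was 0.111 to 0.175 normalized CPM (CPM, reads scaled to the library total after TMM). Between 4842 and 10283 genes had more than 3 reads in a library. Of 14337 genes with more than 3 reads in any of the 6 libraries, 2458 had them in all 6 and 3424 in a single library. Spearman correlations of log2 CPM were 0.532 to 0.601 within the primordial stage, 0.488 to 0.550 within the primary stage and 0.460 to 0.638 between stages, and the ranges overlapped. In the model used below, fitted to all 12 libraries, the coefficient of variation between libraries was 2.02. The median standard error of a log2 fold change was 3.04. Differences of a few fold were therefore not detectable for most genes.

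The labelled cell type was checked against markers. Of 18 oocyte markers, 12 had more than 3 reads in all 6 libraries, and *Ddx4*, the germ cell RNA helicase, had 5682, 8944 and 6357 reads in the primordial libraries and 9497, 2954 and 15606 in the primary libraries. The 18 oocyte markers summed to 1052, 889 and 878 normalized CPM in the primordial libraries and 868, 571 and 1452 in the primary libraries. RNA of other cells was present at both stages, and in bulk samples fewer cells of a type and less RNA per cell cannot be told apart. The 20 granulosa markers summed to 2166, 1269 and 538 normalized CPM in the primordial libraries and 3412, 1550 and 693 in the primary libraries, and *Fshr* and *Cyp19a1* were at 0 in all 6. The 18 markers of theca, stroma and smooth muscle summed to 3119, 6063 and 2808 CPM against 6097, 36344 and 1110 CPM, with *Cyp17a1* and *Mfap5* at 0 in all 6. This sum was above the oocyte sum in every library except primary library 3, which had the highest oocyte sum and the lowest stroma sum. The granulosa sum was above the oocyte sum except in primordial library 3 and primary library 3. Sums over unlike marker sets do not measure shares of cells. Primary library 2 stood apart in these genes, with 466458 reads of the collagen gene *Col1a1* against 12234 to 51276 in the other libraries. The 10 endothelial markers summed to 0 to 57.4 CPM against 5.90 to 81.5 CPM, with *Pecam1*, *Flt1* and *Cldn5* at 0 in all 6. The 12 blood and immune markers, mainly hemoglobin genes, summed to 0, 76.3 and 2.30 CPM against 2474, 796 and 247 CPM without overlap, while *Ptprc*, *Adgre1* and *Cd3e* were at 0 in all 6. No gene of these lists passed the test described below, and the part of other cells in the results was not tested.

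Genes of the zona pellucida and of factors secreted by the oocyte were higher in the primary libraries in sum, although none of them passed the test across all genes. The proximal promoters of a zona gene and of a gene of the oocyte cytoplasm are shown first, because the known oocyte regulators FIGLA, SOHLH1 and LHX8 include bHLH factors that bind the E-box CANNTG, where N is any base. Sequences are from RefSeq on GRCm38.p6, run 5′ to 3′ on the gene's strand from 250 bases upstream of the start for 240 bases, and have the E-boxes in capitals.
*Zp3* promoter, chr5:135979855-135980094, plus strand: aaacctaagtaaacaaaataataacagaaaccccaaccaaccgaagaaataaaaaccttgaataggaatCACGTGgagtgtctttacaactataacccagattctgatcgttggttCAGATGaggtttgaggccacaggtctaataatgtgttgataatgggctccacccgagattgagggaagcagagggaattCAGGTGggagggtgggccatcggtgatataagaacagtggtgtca
*Padi6* promoter, chr4:140742654-140742893, minus strand: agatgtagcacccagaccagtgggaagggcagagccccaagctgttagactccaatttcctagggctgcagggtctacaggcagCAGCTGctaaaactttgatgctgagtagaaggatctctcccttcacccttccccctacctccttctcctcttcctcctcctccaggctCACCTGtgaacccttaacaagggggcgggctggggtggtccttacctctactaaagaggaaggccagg
The *Zp3* window held 3 E-boxes, which began 181, 134 and 55 bases upstream of the start, and the *Padi6* window held 2, which began 166 and 78 bases upstream. CANNTG is its own reverse complement, so both strands were read at once. The motif is common. Of 32851 promoters of the table, 65.0% held at least 1, 30.3% at least 2 and 11.3% at least 3 in the same window. A match is a string of letters and was not tested as a binding site, and *Gdf9*, *Fgf8*, *Zp1* and *Zp2* had no window in the table.

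All 7 genes of the list of secreted factors and zona glycoproteins had a positive log2 fold change (primary over primordial), with a median of 3.38 on that scale, where 44.3% of all 15317 genes tested had a positive value and their median was 0.00. This list and those below were chosen with earlier results of these data known, so their shares beside all genes are descriptive only. *Gdf9* had 135, 101 and 15 reads in the primordial libraries and 1576, 1103 and 1087 in the primary libraries, or 3.44 ± 2.52 against 65.1 ± 24.4 normalized CPM (mean ± SD, n = 3 each). The lowest primary library was above the highest primordial library. Its log2 fold change was 4.24 with a standard error (SE) of 3.12 and an adjusted p of 0.599 by the quasi-likelihood test of edgeR (Benjamini-Hochberg over all genes), and 3.77 to 4.84 when any of the 6 libraries was left out.

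The zona genes had the same order of stages. *Zp1* had 41, 536 and 20 reads against 1360, 974 and 2115, and *Zp3* had 98, 75 and 45 reads against 817, 465 and 570. *Zp2* was the closest pair, with 133, 179 and 57 reads against 242, 178 and 411, and its groups were also apart once scaled, at 5.10 ± 1.90 against 14.5 ± 7.60 CPM (SD, n = 3 each). The log2 fold changes were 3.36 for *Zp1*, 3.38 for *Zp3* and 1.51 for *Zp2*, with adjusted p of 0.677, 0.747 and 0.957 by edgeR. For each gene edgeR drew the spread over all 12 libraries towards that of genes of like abundance. The SE of *Zp3* was 3.33 although its 3 *in vivo* values lay close together at each stage, and what set that SE was not tested.

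The less abundant ligands followed with fewer reads. *Bmp15*, the partner of *Gdf9*, had 0, 1 and 0 reads against 24, 0 and 38, and its groups overlapped at 0. *Fgf8*, an oocyte signal to granulosa cells, was at 0 in all 3 primordial libraries and had 1, 1 and 197 reads in the primary libraries, at least 27.3-fold higher against a floor of 3 reads per library. That value rested on primary library 3, without which both stages were under the floor. *Bmp6* had 23, 0 and 0 reads against 0, 164 and 7, and its log2 fold change was 2.80, but -0.77 without primary library 2.

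Of the 7 genes, 5 did not overlap between the stages and were higher in the primary libraries, against 2.36% of all genes in that direction and 4.02% in the other, together 6.39%. The summed level of the 7 genes was 18.4, 33.1 and 7.15 CPM in the primordial libraries and 235, 116 and 240.5 CPM in the primary libraries. The stages did not overlap in the sum. No test was run on the sums, and an exact permutation test of 3 against 3 can give no p below 0.1. Of the other lists, only meiotic prophase and the blood and immune markers had sums without overlap.

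**Figure D1:**
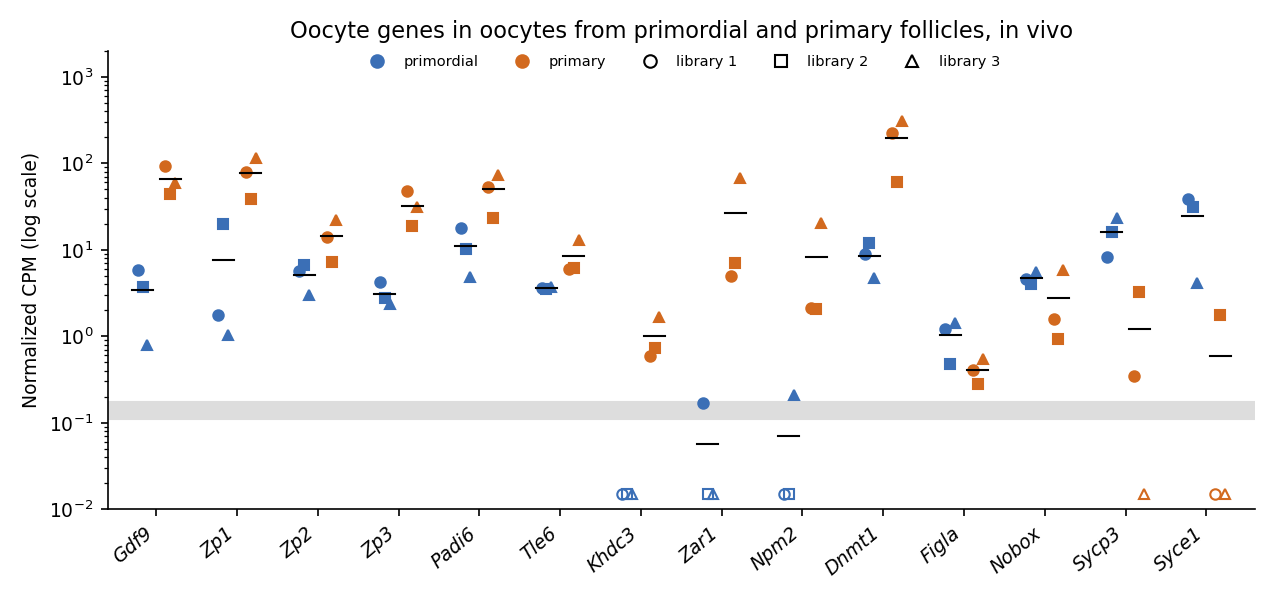
Normalized CPM (log axis) of 14 oocyte genes in the 3 primordial libraries (blue) and the 3 primary libraries (orange) *in vivo*, with marker shapes for library number, black bars for group means above 0, open markers at the bottom for 0 reads and a grey band for 3 reads. *Gdf9*, *Zp1*, *Zp2*, *Zp3*, *Padi6*, *Tle6*, *Khdc3*, *Zar1*, *Npm2* and *Dnmt1* lie higher in all primary libraries, and *Sycp3* and *Syce1* lower.

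The subcortical maternal complex is a protein assembly under the oocyte membrane that the embryo needs for its first divisions. All 8 of its genes had a positive log2 fold change, with a median of 1.63. Among them 3 did not overlap and were higher in the primary libraries, against 2.36% of all genes in that direction. *Padi6*, an arginine deiminase family member of the cytoplasmic lattices, had 415, 277 and 92 reads against 911, 578 and 1350 (17.8, 10.3 and 4.80 against 53.2, 23.2 and 73.4 CPM), and its log2 fold change was 2.19 (SE 3.12, adjusted p = 0.875 by edgeR). *Tle6* had 84, 94 and 71 reads against 102, 152 and 241. *Khdc3* was at 0 in all primordial libraries and had 10, 18 and 31 reads in the primary libraries, at least 7.55-fold higher against 3 reads per library (4.94-fold without primary library 3), with an adjusted p of 0.424 by edgeR. Its reads can be shared with 1 gene that overlaps it on the same strand.

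Other members of the complex overlapped between the stages. *Nlrp5* had 674, 263 and 182 reads against 284, 231 and 1030, with a log2 fold change of 0.77 that was -0.31 without primary library 3. *Ooep* had 55, 29 and 10 reads against 13, 17 and 62. The 12 oocyte *Nlrp* genes tested all had positive log2 fold changes, with a median of 4.14. *Nlrp14* had 257, 162 and 63 reads against 250, 139 and 707, and 1 of the 12 was apart and higher (2.36% of all genes were). Without primary library 3, 4 of the 8 complex genes and 6 of the 12 *Nlrp* genes were positive, so those counts rested on that library. The counts of the secreted and zona genes did not, since at least 6 of the 7 were positive without any 1 library. The *Nlrp* genes form a family of close copies, and their reads may be divided among members.

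Genes of RNA storage and of the egg store were split. Of 21 genes of germ cell RNA binding and storage, 14 were positive, or 10 without primary library 1. Of the 21, 2 did not overlap and were higher in the primary libraries, where 2.36% of all genes were. In that direction 7 had an unadjusted p under 0.05 by edgeR, against 5.93% of all genes. *Zar1*, which holds maternal mRNA in store, had 4, 0 and 0 reads against 85, 176 and 1252 (log2 fold change 8.73, SE 4.22, adjusted p = 0.424 by edgeR). *Patl2* was at 0 in all primordial libraries with 7, 1 and 77 reads in the primary libraries, *Pabpc1l* at 0 with 0, 146 and 2498, and *Eif4e1b* had 0, 1 and 0 reads against 0, 37 and 3360. Primary library 3 was the highest in each of these 4 genes. *Ybx2*, an abundant mRNA-packing protein of germ cells, had 7556, 30014 and 101427 reads against 195117, 25678 and 52350 and overlapped widely.

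Among 26 other oocyte-enriched genes, 19 were positive, with a median of 1.25. Of the 26, 4 did not overlap and were higher in the primary libraries, against 2.36% of all genes. *Npm2*, a histone chaperone of the egg nucleus, had 0, 0 and 4 reads against 36, 51 and 380 (log2 fold change 6.81, SE 4.08, adjusted p = 0.495 by edgeR), and it overlaps another gene on its strand. *Astl*, the protease that cleaves ZP2 after fertilization, had 15, 12 and 0 reads against 22, 287 and 53. *H1foo*, the linker histone of oocytes, had 0, 9 and 0 reads against 14, 15 and 70. All 3 genes were higher in every primary library than in any primordial library. Without primary library 3, 12 of the 26 were positive.

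One gene of this list also passed the test across all genes. The members were chosen with earlier results of these data known, so a called member is not independent support for the list. Calls needed an adjusted p under 0.05 together with a 2-fold or larger difference, and 8 of 15317 genes were called, or 0.0522%, with 5 higher (0.0326%) and 3 lower (0.0196%) in the primary libraries. Before adjustment 1713 genes (11.2%) had a p under 0.05, 909 of them higher and 804 lower (5.25%) in the primary libraries. Of the 8 called genes, 5 were apart in all libraries. A single library held at least 90% of the higher stage's summed CPM for 3 of the 8 (*H2afj*, *Gm14267* and *Hoxd10*).

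*D6Ertd527e* (chr6:87104746-87112997), listed here as enriched in oocytes, rose from 1, 1 and 4 reads in the primordial libraries to 14340, 1594 and 13986 in the primary libraries. The level was 0.0962 ± 0.0974 against 554 ± 426 CPM (SD, n = 3 each), and the log2 fold change was 12.44 (SE 2.62, adjusted p = 0.0153 by edgeR). *Tubb6*, a β-tubulin on chromosome 18, rose from 2, 5 and 2 reads to 5584, 17684 and 6222, or from 0.125 ± 0.053 to 458 ± 218 CPM (SD, n = 3 each), with a log2 fold change of 11.77 (SE 2.65, adjusted p = 0.0269 by edgeR). *Ptp4a1*, a small protein tyrosine phosphatase, rose from 8, 15 and 9 reads to 26314, 9485 and 8974 (log2 fold change 10.76, SE 2.48, adjusted p = 0.0306 by edgeR), and it overlaps another gene on its strand. Each of these 3 genes had at most 15 reads in any primordial library and at least 1594 in every primary library.

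*Tubb3*, the β-tubulin best known from neurons, had 0, 1 and 8 reads against 44154, 1 and 31700, so primary library 2 lay with the primordial libraries (adjusted p = 0.0136 by edgeR). The pseudogene *Gm14267* had 0, 3 and 0 reads against 53441, 1 and 1, and its call rested on primary library 1. Without that library its log2 fold change was 0.27.

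The genes called in the other direction were *Max*, *H2afj* and *Hoxd10*. *Max* (chr12:76937269-76962201), the dimer partner of the MYC proteins, fell from 13113, 8823 and 18579 reads to 1, 8 and 2, or from 619 ± 325 to 0.163 ± 0.139 CPM (SD, n = 3 each), with a log2 fold change of -11.83 (SE 2.69, adjusted p = 0.0273 by edgeR). *H2afj*, an H2A histone variant, fell from 3236, 65389 and 1925 reads to 0, 3 and 1 (log2 fold change -13.73, SE 2.99, adjusted p = 0.0224 by edgeR), and its locus is shared with 1 gene of the opposite strand. *Hoxd10* had 56044, 0 and 0 reads against 1, 0 and 0, and all but 1 of its reads were in primordial library 1.

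**Figure D2:**
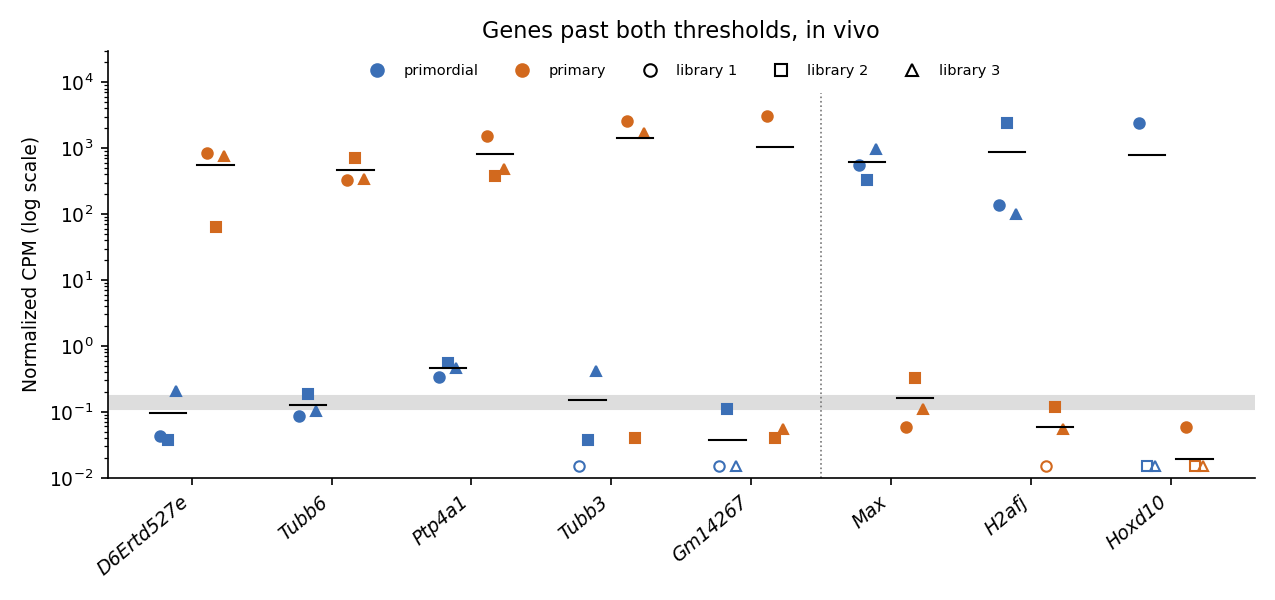
Normalized CPM (log axis) of the 8 genes past both thresholds in the 3 primordial (blue) and 3 primary (orange) libraries *in vivo*, higher in primary left of the dotted line and lower to the right, with marker shapes for library number, black bars for group means, open markers at the bottom for 0 reads and a grey band for 3 reads. *D6Ertd527e*, *Tubb6*, *Ptp4a1*, *Max* and *H2afj* are apart in all libraries, while *Tubb3*, *Gm14267* and *Hoxd10* are not.

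The calls depended on single libraries, on the libraries fitted and on the test. Fitted to the 6 *in vivo* libraries alone, edgeR called 3 genes, and 0 of them were apart in all libraries. Leaving out primordial library 1 or 2 left 0 called genes in edgeR, where 1060 and 1224 genes had an unadjusted p under 0.05. Without primordial library 3 it called 2 genes, without primary library 2 or 3 it called 4 and 5, and without primary library 1, 2 or 3 of the culture group, which share the estimate of spread, it called 1, 2 and 1. The sign did not change for *D6Ertd527e*, *Tubb6*, *Ptp4a1*, *Max* and *H2afj* when any 1 library was left out, and their log2 fold changes were then 12.01 to 13.58, 11.30 to 12.15, 9.88 to 11.10, -12.76 to -11.35 and -14.72 to -10.84. DESeq2 on the same 12 libraries called 561 of 8732 genes with an adjusted p (6.42%), with 312 higher (3.57%) and 249 lower (2.85%), and 6 of the 8 genes were among them. Of those 561, 217 did not overlap between the stages and 269 had at least 90% of the higher stage's summed CPM in 1 library. limma-voom with quality weights called 47 genes (0.307%), 17 higher (0.111%) and 30 lower (0.196%), and 4 of the 8 were among them.

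Further genes with the smallest unadjusted p among those apart in all libraries did not pass the adjusted threshold. *Rspo2*, an R-spondin that strengthens Wnt signaling, had 8, 17 and 2 reads against 2579, 3182 and 24467 (log2 fold change 10.52, SE 2.90, adjusted p = 0.263 by edgeR). *Slc6a7*, a proline transporter, had 22, 2 and 0 reads against 7786, 5898 and 8864. *Atp5g1*, a subunit of the ATP synthase, had 2798, 1411 and 2 reads against 96255, 6937 and 20020. The spread within a stage was wide even where the stages were apart.

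On the other side, *Hdac3*, a histone deacetylase, had 627, 7135 and 16375 reads against 0, 5 and 0 (log2 fold change -12.31, SE 3.43, adjusted p = 0.271 by edgeR). *Mpp5*, a scaffold of cell polarity, had 2232, 1510 and 17206 reads against 0, 1 and 0, a ratio of 1.82e+04 with a counting interval (95%) of 3.27e+03 to 7.20e+05. *Stx8*, a syntaxin of endosomes, had 283, 223 and 8496 reads against 0 in all primary libraries, at least 1011-fold higher in the primordial libraries against 3 reads per library, and at least 66.7-fold without primordial library 3. *Trim44* had 52158, 4295 and 2720 reads against 17, 230 and 61. The counting interval covers counting error only, since reads of amplified RNA are not independent molecules.

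**Figure D3:**
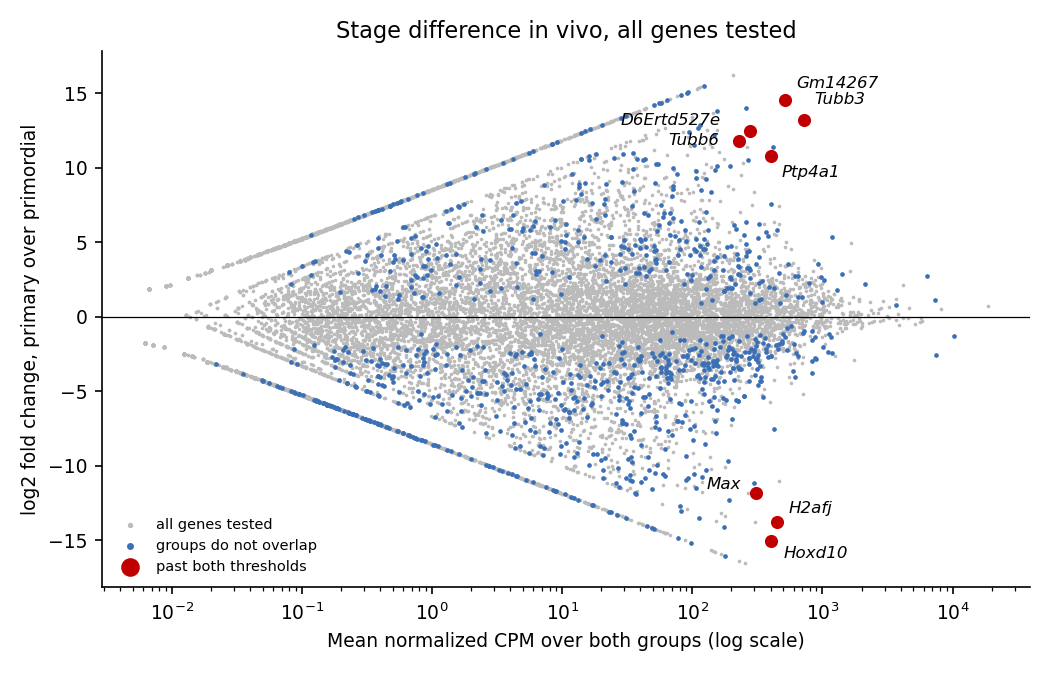
log2 fold change (primary over primordial *in vivo*) against the mean normalized CPM of both groups (log axis) for all 15317 genes tested (grey), genes whose groups do not overlap (blue) and the 8 called genes (red, labelled). The outer lines are genes with reads at a single stage, and 362 genes do not overlap and are higher in primary against 616 lower.

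The non-overlapping genes were more often lower than higher in the primary libraries, 616 against 362. With more than 3 reads also required in all 3 libraries of the higher stage, 530 (3.46%) were lower and 322 (2.10%) higher, and of all genes 49.1% had a negative log2 fold change. The number of genes with more than 3 reads was 8690, 10240 and 6438 in the primordial libraries and 4842, 10283 and 7163 in the primary libraries. The means of 8456 ± 1912 and 7429 ± 2730 (SD, n = 3 each) were not apart (p = 0.7 in a two-sided exact permutation test, which can give no p below 0.1 with 3 against 3). Primary library 1 had the fewest genes, and without it the mean of the primary stage was the higher one by 267 genes.

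Transcription factors that set up the oocyte program did not follow the genes of the growing oocyte. Of 16 tested, 6 were positive, and the median log2 fold change was -0.04. *Nobox*, a homeobox factor needed for follicles to leave the primordial stage, had 106, 107 and 106 reads against 27, 23 and 108. *Figla*, the bHLH factor that acts on zona genes, had 28, 13 and 27 reads against 7, 7 and 10, and *Sohlh1* had 64, 41 and 67 against 0, 20 and 57. *Lhx8*, a LIM homeobox factor, had 13862, 673 and 4325 reads against 2, 953 and 944 (log2 fold change -3.24, SE 2.68, adjusted p = 0.666 by edgeR). The stages overlapped in these 4 genes once scaled. Of the 16 genes, only *Sall4*, a zinc finger factor of germ cells, was apart, with 1, 52 and 0 reads against 41, 441 and 79. A gene overlaps it on the opposite strand. Over all genes 6.39% were apart.

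Genes of meiotic prophase were more often negative than positive, and their sum rested on single libraries. These genes build the synaptonemal complex and make and repair meiotic breaks before birth, ahead of the arrest. Of 19 tested, 5 were positive and 12 negative, with a median of -1.08, and 2 were apart and lower against 1 apart and higher, where 4.02% and 2.36% of all genes were. *Syce1*, of the central element of the synaptonemal complex, had 896, 852 and 79 reads against 0, 44 and 0 (log2 fold change -5.37, SE 3.82, adjusted p = 0.576 by edgeR). *Sycp3*, of its lateral element, had 190, 432 and 451 reads against 6, 81 and 0, or 15.9 ± 7.69 against 1.20 ± 1.78 CPM (SD, n = 3 each; adjusted p = 0.727 by edgeR). The summed level of the list was 323, 268 and 360.1 CPM against 124, 74.3 and 21.7 CPM, without overlap. Without *Dmc1* and *Sycp1*, chosen after their values were seen, it was 121, 267 and 122 CPM against 123.4, 74.3 and 21.7 CPM, and the stages overlapped.

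Single libraries held nearly all reads of *Dmc1* and *Sycp1*. *Dmc1*, the meiotic recombinase, had 4717, 4 and 0 reads against 0 in all primary libraries, and *Sycp1* had 1, 21 and 4556 reads against 13, 0 and 0. *Smc1b*, the meiotic cohesin subunit, had 882, 3536 and 265 reads against 777, 993 and 230 and overlapped. Without primordial library 2 the median of the list was 0.04, with 9 of 18 positive. No gene of the list passed the test.

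**Figure D4:**
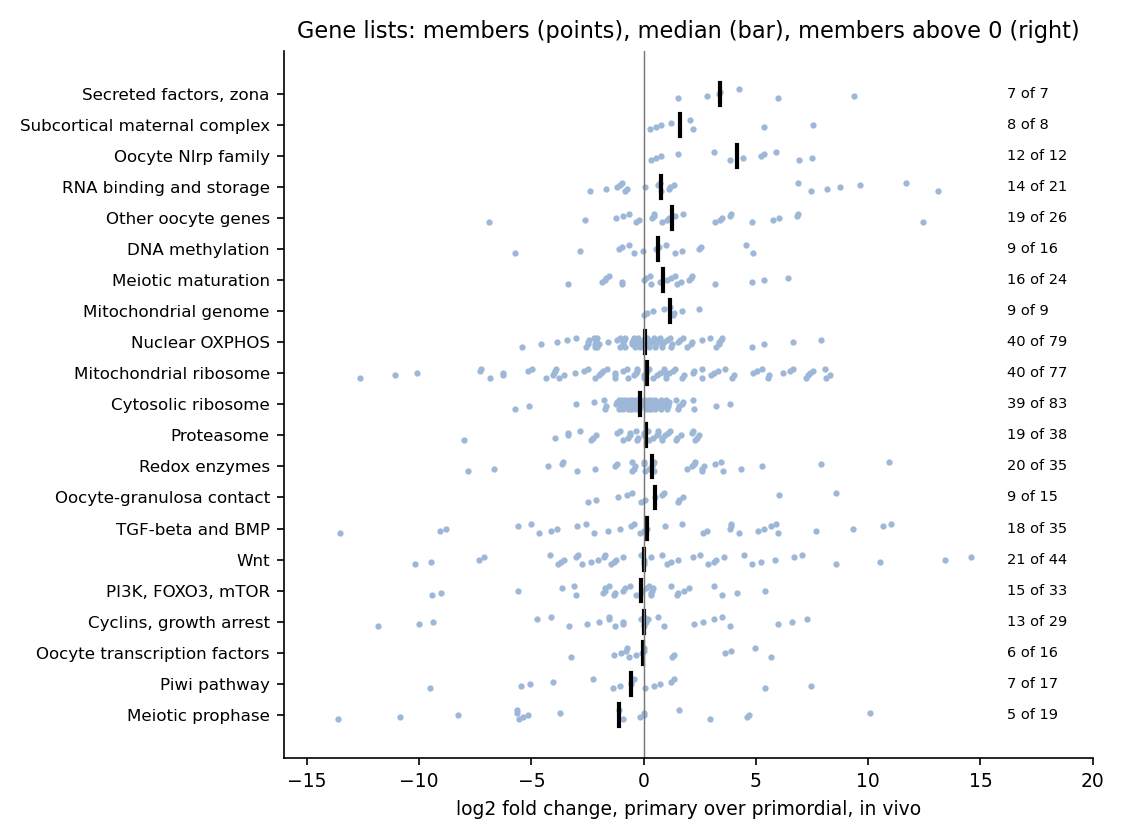
log2 fold change (primary over primordial *in vivo*) of the tested members of 21 gene lists, each point a gene, each bar the list's median, and the number of members above 0 at the right. Secreted factors and zona (7 of 7), the subcortical maternal complex (8 of 8) and oocyte *Nlrp* genes (12 of 12) lie above 0, and meiotic prophase has the lowest median.

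The pathway that wakes the follicle was examined by role. Of 33 genes of PI3K, FOXO3 and mTOR signaling, 15 were positive, the median was -0.14, and none was called. The receptor gene *Kit* had 2121, 5471 and 2128 reads against 63, 1361 and 2856. *Pik3cd*, a catalytic subunit of PI3K, had 19, 250 and 0 reads against 2427, 2163 and 3743, or 3.36 ± 5.13 against 144 ± 58.3 CPM (SD, n = 3 each), with a log2 fold change of 5.42 (SE 2.77, adjusted p = 0.448 by edgeR). *Pik3r1*, the regulatory subunit, had 5654, 5176 and 3063 reads against 30, 2816 and 981 (log2 fold change -1.82, SE 2.43), and its stages were apart in the other direction.

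Downstream of PI3K, *Foxo3* overlapped between the stages and some growth genes did not. *Foxo3*, the factor that holds the oocyte at rest when nuclear, had 2847, 49263 and 10536 reads against 15812, 31319 and 8839, and its log2 fold change of 0.09 (SE 1.37) changed sign with the scaling and the libraries used. Movement of the protein between nucleus and cytoplasm is not seen in read counts. *Rheb*, the activator of mTOR, had 0, 978 and 1 reads against 4399, 3986 and 4352, and *Eif4e*, the cap-binding protein, which overlaps another gene on its strand, had 1334, 2453 and 0 against 23935, 3145 and 3045. Both were apart, and their adjusted p were 0.539 and 0.466 by edgeR.

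Of 29 genes of cyclins and growth arrest, 13 were positive, with a median of 0.00, and *Max* alone was called. Without primary library 2 the positive genes were 7 of 29 and without primary library 3 they were 9 of 28. The 4 genes that were apart were all lower in the primary libraries, where 4.02% of all genes were apart and lower and 2.36% apart and higher. *Cdkn1c*, an inhibitor of cyclin-dependent kinases, had 9, 1649 and 2700 reads against 0, 3 and 3, with an adjusted p of 0.411 by edgeR, and an opposite-strand gene shares its locus. *Gadd45a*, a stress and growth arrest gene, had 328, 6 and 42 reads against 0 in all primary libraries, and it too shares its locus with an opposite-strand gene. *Gadd45b* had 2, 2 and 5 reads against 0 in all 3, at the limit of detection.

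In the signaling lists the count of positive genes moved with single libraries. Of 35 genes of TGF-β, BMP and activin signaling 18 were positive (median 0.15), and of 44 Wnt genes 21 were positive (median 0.00), with none called. Without primary library 2, when the median of all genes was -1.35, 12 of 35 (median -0.55) and 9 of 41 were positive. Without primordial library 2, 21 of the 35 were positive (median 1.90). *Bmpr2*, the receptor that BMP15 and GDF9 share, had 10704, 10366 and 15476 reads against 5, 5787 and 773, and the stages were apart with the primordial libraries higher (log2 fold change -2.59, SE 1.70, adjusted p = 0.527 by edgeR). *Sfrp1*, a secreted antagonist of Wnt, had 1105, 3091 and 9 reads against 0, 3 and 0. *Tcf7*, a transcription factor of the pathway, had 10, 1214 and 5 reads against 42242, 1473 and 2258.

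DNA methylation is laid down anew in the growing oocyte. Of 16 genes of DNA methylation and demethylation 9 were positive (median 0.62). Of the 16, 2 were apart, both higher in the primary libraries, where 2.36% of all genes were. *Dnmt1*, the maintenance methyltransferase, had 208, 319 and 90 reads against 3880, 1530 and 5597, or 8.48 ± 3.59 against 197 ± 124 CPM (SD, n = 3 each), with a log2 fold change of 4.54 (SE 2.72, adjusted p = 0.495 by edgeR) and 4.09 to 4.96 without any 1 library. *Trim28*, a co-repressor that protects imprinted methylation, had 142, 1246 and 2 reads against 19520, 3024 and 4636 (adjusted p = 0.426 by edgeR). *Dnmt3a*, a de novo methyltransferase, had 11161, 596 and 11511 reads against 3275, 10592 and 8502 and overlapped.

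Nuclear genes of energy supply and protein turnover were about as often positive as negative over the 6 libraries. Of 79 nuclear subunits of oxidative phosphorylation 40 were positive (median 0.06), of 77 mitochondrial ribosomal proteins 40 (median 0.13), of 83 cytosolic ribosomal proteins 39 (median -0.15) and of 38 proteasome subunits 19 (median 0.10), with none called in any. Without primary library 2 the counts were 25 (median -0.84), 28 (median -1.68), 31 (median -0.49) and 16 (median -0.06), while the median of all genes was -1.35. All 9 tested genes of the mitochondrial genome were positive (median 1.19), and 4 of the 9 were apart and higher in the primary libraries, against 2.36% of all genes. Their summed level was low and overlapped, at 17.3, 10.6 and 13.8 CPM against 17.9, 33.8 and 11.5 CPM. The list held 13 genes, and only 9 had reads in these libraries. How far the capture of coding RNA set this level was not tested. Without primary library 2, 6 of the 9 were positive. None of the 9 was called, and their smallest adjusted p was 0.836 by edgeR. Of 35 redox enzymes 20 were positive (median 0.38), and of 24 genes of meiotic maturation 16 (median 0.87), again with none called.

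The same 2 stages were also collected from ovaries of 7-day-old mice after 7 days of culture. Their 6 libraries are not among those compared above, but they entered the estimate of spread. In culture 0 genes were called between the stages (0%) by edgeR, while 1673 (10.9%) had an unadjusted p under 0.05 and the smallest adjusted p was 0.289. Of the 27 genes named by the rule for the *in vivo* comparison, 12 had the same sign in culture and 4 an unadjusted p under 0.05 there. The test of the difference between the *in vivo* and the culture effect (interaction) called 16 genes (0.104%), with a value (the *in vivo* minus the culture log2 fold change) above 0 for 5 (0.0326%) and below 0 for 11 (0.0718%), and 8 of the 27 were among them. These 27 were chosen by their *in vivo* difference, so a smaller value in culture is partly set by the choice.

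*D6Ertd527e* had 2, 52622 and 12878 reads in primordial and 22102, 6972 and 12983 in primary libraries of the culture group, and its interaction was 13.29 on the log2 scale (SE 2.95, adjusted p = 0.0229 by edgeR). *Tubb6* had 1, 22015 and 22575 reads against 27490, 3736 and 17429 in culture, and *Max* had 0, 14 and 20660 against 5471, 28504 and 12121. In each of the 3 genes the cultured primordial libraries were spread over the whole range that separated the stages *in vivo*. *Gng3*, a G protein subunit that was at 0 in all *in vivo* primordial libraries with 7, 1450 and 8029 reads in the primary libraries, had log2 fold changes of 14.90 *in vivo* and 11.62 in culture.

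Primordial library 2 of the culture group stood apart in oocyte growth genes, with 7061 reads of *Gdf9*, 2819 of *Zar1* and 915 of *Npm2*. Without it, 2 genes were called in the interaction in place of 16, and 17 of the 27 named genes had the same sign. Leaving out any other culture library gave 0 to 5 interaction genes by edgeR (smallest adjusted p = 0.189 where it gave 0), so the fall was not particular to it. The *in vivo* calls did not depend on it, with 8 called genes also then.

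**Figure D5:**
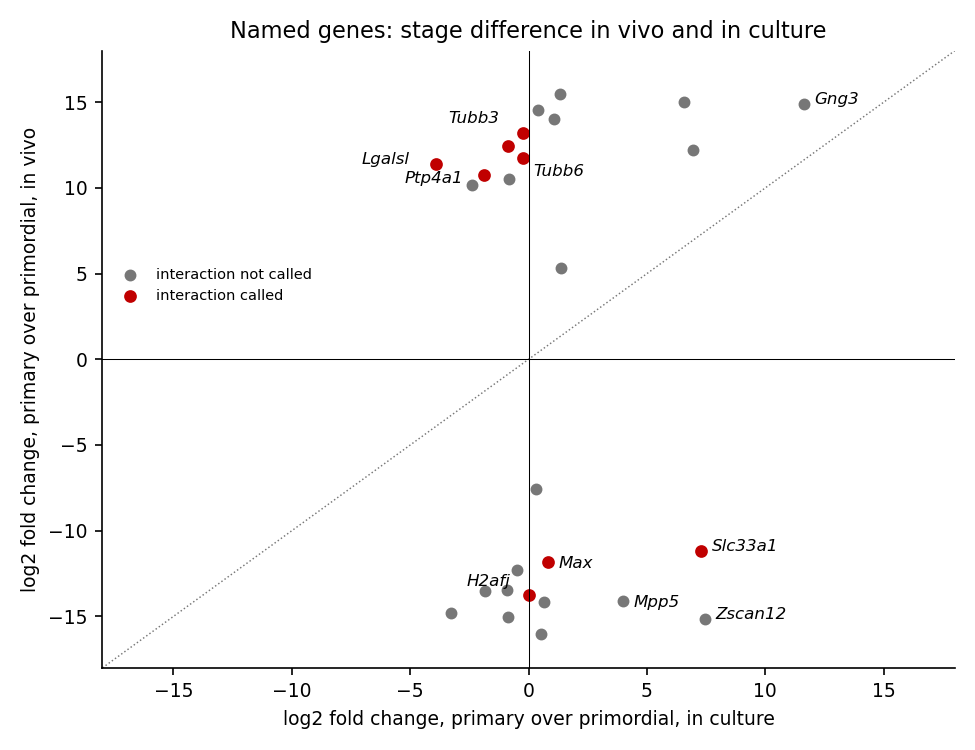
log2 fold change between the stages *in vivo* (vertical) against that in culture (horizontal) for the 27 named genes, with genes called in the interaction in red and equal effects on the dotted diagonal. Points lie far from 0 on the vertical axis by choice, most lie near 0 on the horizontal axis, and *Gng3* is among those close to the diagonal.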

How the data were processed

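Per the labels and methods, reads were trimmed with Trim Galore 0.4.1 and aligned to mm10 by TopHat2, featureCounts gave the read counts per gene, and the authors deposited raw counts. Strand and multi-mapping settings are not given in the sources used here, and an Ensembl and a RefSeq annotation are both named. Counts of overlapping genes and gene families are therefore uncertain. The authors also deposited TPM, normalized by gene length and library size, for 28252 of 53715 genes. Coordinates and overlaps came from GENCODE release 21 by gene identifier (53620 genes matched).

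Totals of the 6 *in vivo* libraries were 18437770 to 25495043 reads, and intervals and the floor of 3 reads cover counting error only. Samples were grouped by their titles. Counts of the 12 LCM libraries were fitted in 4 groups with edgeR 4.0.16 in R 4.3.3 (TMM, glmQLFit with robust = TRUE, glmQLFTest) for genes reaching 10 reads over these libraries. Calls needed a p under 0.05 after Benjamini-Hochberg adjustment and a 2-fold or larger difference. The MII libraries, made with another kit, were not used here, and results for some genes are not reported. CPM were scaled with the TMM factors before means and SDs were taken. Stages did not overlap where every value of one was above every value of the other. The scripts were tested on simulated data.

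Named genes were members of gene lists, the 12 genes per direction with the smallest unadjusted p among those with a symbol, more than 3 reads in all 3 libraries of the higher stage and no overlap, and all called genes up to 10 per direction. The members and lists were chosen with earlier results of these data known. Alternatives were other scalings and filters, the 6 *in vivo* libraries alone, DESeq2 1.42.0, limma 3.58.1 (voom with quality weights, and log2 TPM with pseudocounts of 1 and 0.1), edgeR without robust estimation, a replicate block and leaving out each library.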

Additional observations from a re-analysis of the deposited data

Results flagged for a closer look

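In edgeR's test of the difference between the *in vivo* and the culture effect, 16 genes passed both thresholds. Each value here is the log2 stage difference (primary over primordial) *in vivo* minus that in culture, and no explanation of it was tested.

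The value was above 0 for 5 genes, at 13.42 for *Tubb3*, 13.29 for *D6Ertd527e*, 12.64 for *Ptp4a1*, 15.28 for *Lgalsl* and 12.03 for *Tubb6*. For *Lgalsl*, a galectin-like gene, the reads were 14, 7 and 1 against 40953, 61 and 1726 *in vivo* and 0, 2 and 11289 against 993, 2 and 137 in culture.

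The value was below 0 for 11 genes, which does not mean a smaller effect. *Max* and *H2afj* had log2 stage differences of -11.83 and -13.73 *in vivo* and 0.84 and 0.02 in culture. For *Max* the value was -12.67, for *H2afj* -13.75 and for *Slc33a1*, the acetyl-CoA transporter, -18.45. *Slc33a1* had 970, 2896 and 31286 reads against 1, 8 and 7 *in vivo* and 0, 1 and 1 against 435, 22 and 49 in culture, so the order of the stages was opposite in the 2 settings. *Homer1*, a scaffold gene of synapses, had a value of -25.89, with 9476, 2007 and 7 reads against 1, 0 and 0 *in vivo* and 0 in all 3 against 2258, 1455 and 440 in culture. *Mrpl43*, of the mitochondrial ribosome, had a value of -24.32, with 3418, 1 and 8996 reads against 1, 0 and 9 *in vivo* and 0 in all 3 against 3130, 4110 and 945 in culture.

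Primordial library 3 of the *in vivo* group held nearly all *in vivo* reads of several other genes. These were *Pcdha6* (-25.64), *Crem* (-20.63), *Gm21811* (-26.01) and the histone genes *Hist1h2ag* (-15.71) and *Hist1h2ai* (-14.90), with 29038, 34600, 16533, 53008 and 63529 reads in that library. *Gm4204* (-27.30) had reads in primordial library 2 alone *in vivo*. *Gm21811* and *Gm4204* are pseudogenes, and *Pcdha6* and the histone genes belong to families of close copies. Without primordial library 3 of the *in vivo* group, 0 genes passed in the interaction by edgeR, with a smallest adjusted p of 0.109.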

How the results depend on the processing

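With 3 libraries a stage and a coefficient of variation of 2.02, the counts of calls were the least stable values, and the cause was not tested where no value here shows it. The count of genes higher in the primary libraries, 5, became 8 with DESeq2 size factors, 3 with library size alone, 2 with the 6 *in vivo* libraries alone, 312 with DESeq2 on 12 libraries, 147 with DESeq2 on 6, and 17 with voom. The count lower, 3, became 1 with the 6 *in vivo* libraries alone, 249 and 151 with DESeq2, and 30 with voom. Both counts were 0 in edgeR with filterByExpr (1060 genes at an unadjusted p under 0.05), with no filter beyond 1 read (1696), with a mean of at least 100 reads (872) and with the replicate block (523), and in limma on log2(TPM + 1) and log2(TPM + 0.1) (631 and 716). The interaction count of 16 became 0 with filterByExpr, with no filter 1, with a mean of at least 100 reads 0, with TPM 0 at either pseudocount, with DESeq2 558, with voom 65, and 0 with the replicate block. The share of higher genes among those called was 62.5%, and 72.7%, 50% and 36.2% with DESeq2 size factors, library size alone and voom. voom moved the median log2 fold change of all genes to -0.34.

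Leaving out one *in vivo* library gave 0 to 6 higher, 0 to 5 lower and 0 to 20 interaction genes, and leaving out one culture library 1 to 5, 0 to 5 and 0 to 5. The same-sign count in culture (12 of 27) was 12 to 17 without one culture library. The difference in genes detected was -2454 to 267. Deviations of same-numbered *in vivo* samples had correlations of 0.009, 0.090 and 0.019. Samples of unlike number were not set beside them, so these values cannot decide whether the numbers pair samples. The labels give only a shared number, which the replicate block used.

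Of 1615 values of 63 named genes under the alternatives, 1452 kept their direction and side of the threshold, 112 lost the threshold, 43 gained it and 8 changed sign. Most of the 63 genes were not called in the main fit, and for them keeping the side meant staying uncalled. Only values of the 8 called genes could lose the threshold, and with the replicate block all 8 lost it. The count of 1452 therefore does not measure how stable the calls were. The signs changed for *Nlrp5* (-0.31, with a highest value of 1.5 without primordial library 1) and *Ooep* (-0.87, highest 1.00) without primary library 3, *Ooep* (-0.10) and *Foxo3* (-0.13) without primordial library 3, *Foxo3* without primordial library 1 (-0.42, highest 1.40 without primordial library 2), without primary library 2 (-0.25) and with library size alone (-0.059) and *Bmp6* without primary library 2 (-0.77, highest 8.75 without primordial library 1).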

Other observations

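Gene groups outside the comparison's main themes held further values. Of 15 genes of contacts between oocyte and granulosa cells, 9 were positive (median log2 fold change 0.49) and none was called. *Cdh1*, E-cadherin, had 15, 2 and 0 reads in the primordial libraries and 573, 201 and 106 in the primary libraries, and *Itgb1*, integrin β, had 4628, 4601 and 933 reads against 7756, 14420 and 3773. Both were apart after scaling. Among the 15, 2 were apart and higher in the primary libraries and 1 apart and lower, where 2.36% and 4.02% of all genes were. *Ezr*, ezrin, of microvilli, was apart in the other direction, with 2983, 16914 and 5619 reads against 3, 1708 and 2156.

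Of 17 genes of the Piwi pathway, which keeps transposons silent in germ cells, 7 were positive (median -0.55), or 4 of 16 without primary library 1. *Asz1* had 23, 262 and 25 reads in the primordial libraries and 0 in all primary libraries, at least 26.2-fold higher in the primordial libraries against 3 reads per library (adjusted p = 0.404 by edgeR), and at least 7.49-fold without primordial library 2.

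Hemoglobin reads varied between libraries of one stage. *Hba-a1* had 0, 1005 and 0 reads against 42352, 7047 and 0, and *Hbb-bs* had 0, 0 and 44 reads against 0, 6607 and 4547. *Foxl2*, the factor of granulosa cells, had 187, 12450 and 22 reads against 214, 1183 and 2484, and *Amh*, made by granulosa cells of growing follicles, had 0 in all primordial libraries against 0, 12 and 1.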
